A study of Saccharomyces cerevisiae with 8 samples.

Results

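The sterol set held the yeast genes of the mevalonate steps, the ergosterol steps, sterol esterification and ester hydrolysis, and the transcription factors UPC2 and ECM22. Members were chosen by standard gene name, with earlier results of these data known. Of the 33 listed names, 32 had a row among the 6170 gene identifiers of the 8 RNA-seq tables. ARE2 was not analysed here. All 32 members passed the filter on low counts, with a lowest count of 232, for UPC2. RNA was sequenced from 2 xylose-fermenting Saccharomyces cerevisiae strains, each in 2 stages with duplicate fermentations (n = 2 samples in each of 4 groups). Sampling for the GX stage was at 14 h of a fermentation of 20 g/L glucose with 20 g/L xylose, when glucose was used up, and for the X stage at 12 h with 20 g/L xylose as the only sugar. The groups were therefore XH7 GX, XH7 X, BSGX001 GX and BSGX001 X. XH7 carried pho13::XI, gre3::PPP, XK and 3δ::XI, and BSGX001 carried Ru-XI, XK, gre3::PPP and cox4Δ, where XI is a xylose isomerase gene, XK a xylulokinase gene and PPP genes of the pentose phosphate pathway. Both strains had been evolved on xylose, so each is 1 evolved line, and no unevolved parent was among the samples. The labels trace both strains to CEN.PK 113-5D, whereas the study's methods describe XH7 as derived from a diploid isolate from fruit.

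Libraries held 5279864 to 7675099 counts. COX4, deleted in BSGX001, had 1186 to 2680 counts in the 4 XH7 libraries and 0 counts in the 4 BSGX001 libraries, as the labels would have it. Levels are the deposited counts as FPKM (fragments scaled to gene length and library size) after TMM scaling, which adjusts for differences in RNA composition between libraries. These are shares of the sampled mRNA, not copies per cell. Changes are log2 values from edgeR, GX over X or XH7 over BSGX001, and passed at a Benjamini-Hochberg adjusted p of 0.05 or less over 5921 genes. The strains differ in background, engineering and COX4, and also in ploidy, as the study describes BSGX001 as haploid and XH7 as diploid. In addition, 1 reference served for both (R64 in the submitters' notes, with the suffix CEN.PK113-7D on the gene identifiers). These sources of a strain difference cannot be told apart. The stage comparison takes in both the sugar supplied at the start and the hour of sampling. The study also reports slower growth and xylose use in the GX than in the X stage of both strains. It gives XH7 growth in the GX stage as below detection. The part of growth in the stage changes was not tested.

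Ergosterol is the main sterol of yeast membranes. Acetyl-CoA is first built into mevalonate and farnesyl diphosphate, farnesyl units are joined to squalene, squalene is oxidised and closed to lanosterol, and lanosterol is trimmed and desaturated to ergosterol. Several of the later enzymes, ERG1, ERG11, ERG25, ERG3 and ERG5, use molecular oxygen, and ERG11 and ERG5 are heme proteins of the P450 type, so the late pathway is known to follow oxygen and heme supply. Surplus sterol is stored as fatty acid esters in lipid droplets and released again by hydrolases. Upc2 and Ecm22 are paired zinc cluster factors that bind a sterol response element, with the core TCGTATA, before many of these genes, and Upc2 becomes active when sterol is low.

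The core was searched on both strands in the 500 bases before each start codon of the R64 reference. No other motif was searched. It occurred before 10 of 32 members (31.2%), against 6.98% of all 6019 such windows, and 3 members (ERG13, ERG25 and ERG3) had 2 copies, against 0.366% of all windows with 2 or more. The other members with a copy were ERG8, ERG1, ERG6, ERG2, ERG28, CYB5 and YEH1. The copies before ERG6, ERG2, ERG3, ERG25, ERG1 and CYB5, a choice among the genes with a copy that fell in one or both strains, are shown 5′ to 3′ on the strand that reads TCGTATA, with the core in capitals and the flanks in lower case.
ERG6: gccccgatctTCGTATAtggtacctcg
ERG2: accacggcccTCGTATAagccgcaagg
ERG3 first: gccatcggccTCGTATAcaccccggtt
ERG3 second: aaattcaggcTCGTATAagtggcacaa
ERG25 first: ctgcctccctTCGTATAcgggacacag
ERG25 second: gacacagagaTCGTATAcggtaaacga
ERG1: tagcgggcctTCGTATAgctcggccga
CYB5: tatctcgatcTCGTATAgctttctttt
The cores lie at chrXIII:253416-253422 (minus strand) for ERG6, chrXIII:667352-667358 (plus strand) for ERG2, chrXII:253535-253541 (minus strand) and chrXII:253575-253581 (plus strand) for ERG3, chrVII:610081-610087 (plus strand) and chrVII:610101-610107 (plus strand) for ERG25, chrVII:848799-848805 (minus strand) for ERG1 and chrXIV:417571-417577 (plus strand) for CYB5, in the sequence of RefSeq for R64. They are 185 to 483 bases before the start codon. The 2 copies before ERG25 sit close together on 1 strand, whereas those before ERG3 are on opposite strands. A match is a description of the reference letters, and the strains' own sequences there were not read.

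Levels spanned a wide range within each group. The highest mean levels in XH7 GX samples were those of ERG10 (1886 FPKM), ERG1 (1768 FPKM) and ERG25 (1673 FPKM), and in XH7 X samples those of ERG1 (2507 FPKM), ERG25 (2382 FPKM) and ERG11 (2253 FPKM). In BSGX001 GX samples ERG25 (939.9 FPKM), ERG20 (604 FPKM) and ERG3 (555 FPKM) led, and in BSGX001 X samples ERG25 (1086 FPKM), ERG20 (955 FPKM) and ERG11 (778 FPKM). The order of the leading genes thus differed between the strains: ERG10, first of 32 in XH7 GX samples and sixth in XH7 X samples, ranked 11 in BSGX001 GX samples and 15 in BSGX001 X samples. UPC2, ECM22, HMG2, YEH2 and TGL1 were among the 6 lowest members in each of the 4 groups. The lowest mean was 35.1 FPKM for TGL1 in XH7 GX samples and 33.8 FPKM for UPC2 in XH7 X samples, and 18.2 FPKM in BSGX001 GX samples and 10.7 FPKM in BSGX001 X samples, both for UPC2. The median member had 461 FPKM in XH7 GX samples and 416 FPKM in XH7 X samples, and 153 FPKM in BSGX001 GX samples and 216 FPKM in BSGX001 X samples.

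**Figure D1:**
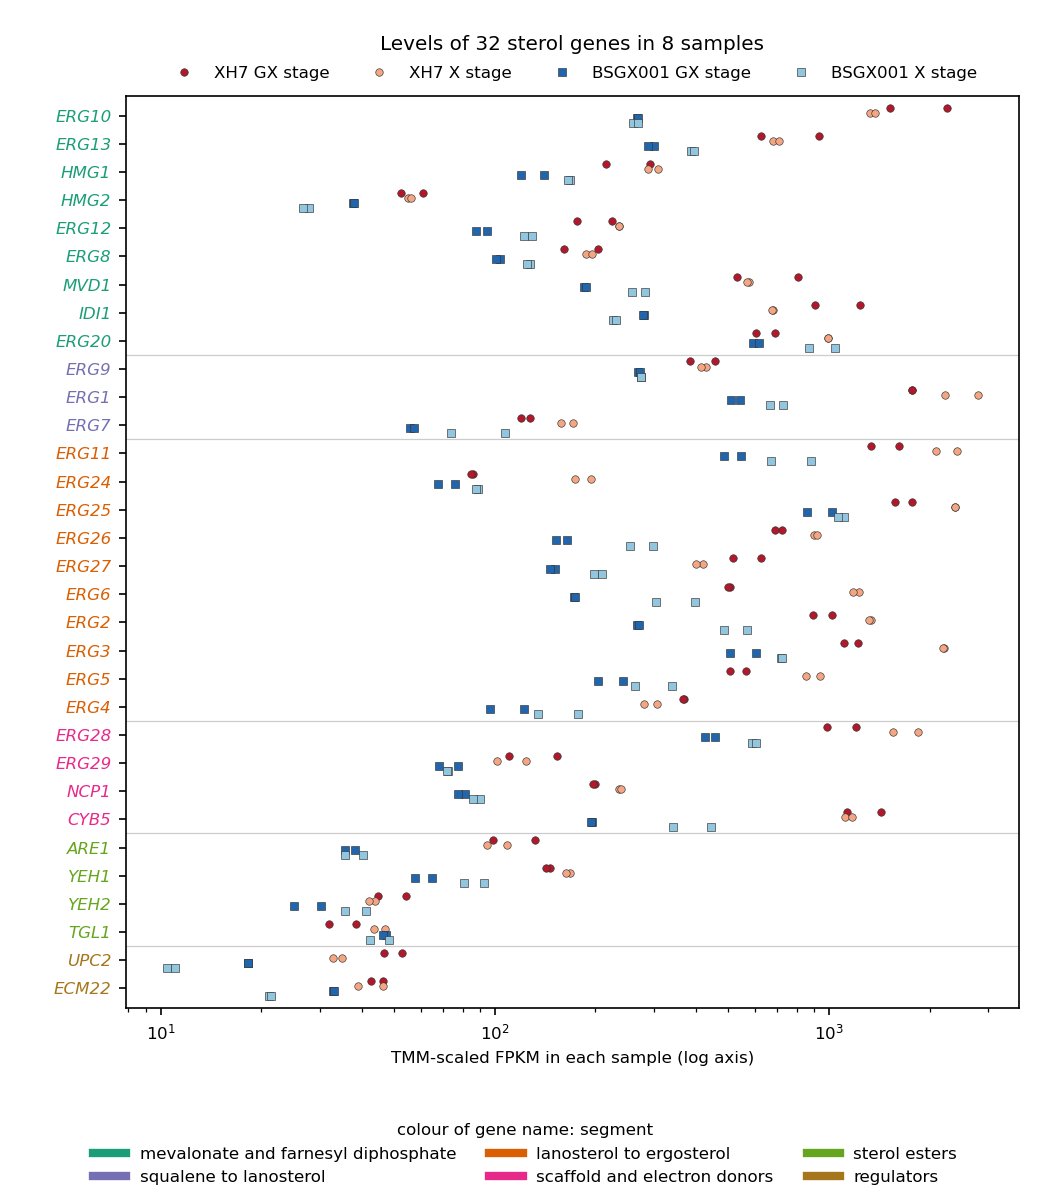
TMM-scaled FPKM of the 32 sterol genes (rows, grouped by segment) in each of the 8 samples, on a log axis; circles are XH7 and squares BSGX001, dark for the GX stage and light for the X stage. The XH7 circles lie to the right of the BSGX001 squares for most genes, and not for ERG20, ERG24 or TGL1.

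Together the 32 members took 2.06% and 2.41% of all counts in the XH7 GX libraries, against 2.40% and 2.46% in the XH7 X libraries. In the BSGX001 GX libraries they took 0.943% and 0.873%, against 1.23% and 1.15% in the BSGX001 X libraries. The strain gap was wider than the stage gap, and the XH7 GX and X libraries lay close together. The genes that turn lanosterol into ergosterol had lower shares in the GX stage, with 0.877% and 0.974% in XH7 GX libraries against 1.22% and 1.23% in XH7 X libraries, and 0.416% and 0.363% in BSGX001 GX libraries against 0.586% and 0.505% in BSGX001 X libraries. The mevalonate steps had 0.612% and 0.851% in XH7 GX libraries against 0.583% and 0.577% in XH7 X libraries, and 0.288% and 0.281% in BSGX001 GX libraries against 0.348% and 0.370% in BSGX001 X libraries. With 2 samples against 2, an exact two-sided permutation test cannot give a p below 0.33, so these shares were not tested.

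**Figure D2:**
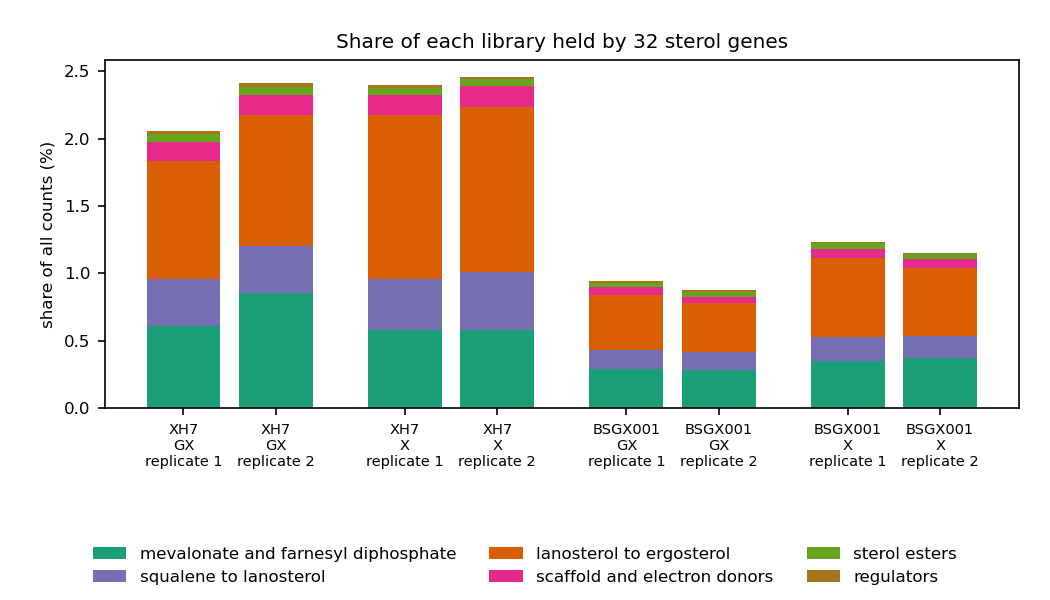
Share of all counts (%) in each library held by the 32 sterol genes, stacked by segment. The XH7 bars reach 2.06% to 2.46% and the BSGX001 bars 0.873% to 1.23%, and the lanosterol to ergosterol block is smaller in GX than in X libraries of both strains.

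The first comparison asked how the sterol genes differ between cells on xylose after glucose and cells on xylose alone. In XH7, 12 of 32 members (37.5%) were lower and 4 (12.5%) higher in the GX stage, while over all genes 22% were lower and 26.7% higher. In BSGX001, 18 members (56.2%) were lower and 3 (9.38%) higher, against 24.7% and 23% of all genes. The median change of the members was −0.21 in XH7 and −0.41 in BSGX001, where the median of all genes was 0.04 in XH7 and −0.02 in BSGX001. The falls gathered at the end of the pathway: of the 10 genes from lanosterol to ergosterol, 8 fell and 1 rose in XH7 (median −0.56), and 9 fell in BSGX001 (median −0.48). Of the 5 genes whose enzymes use molecular oxygen, 5 fell in XH7 and 4 in BSGX001. All of them but ERG1 are among the 10 late genes, so the counts overlap. The other late genes, ERG24, ERG26, ERG27, ERG6, ERG2 and ERG4, also fell in BSGX001, and all but ERG27 and ERG4 fell in XH7. The BSGX001 calls of ERG1, ERG11, ERG3 and ERG5 were each lost in some fits with 1 library left out. Fewer of the 9 mevalonate and farnesyl genes passed, with 2 higher and 1 lower in XH7 (median 0.03) and 1 higher and 3 lower in BSGX001 (median −0.36). In both strains 10 members passed as lower, namely ERG20, ERG1, ERG11, ERG24, ERG26, ERG6, ERG2, ERG3, ERG5 and ERG28, and UPC2 passed as higher. Of these, only ERG20, ERG6 and UPC2 kept the call in both strains in every other fit tried, as described below. The share of all genes that fell in both strains was not counted, so the shared number of 10 has no background beside it.

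**Figure D3:**
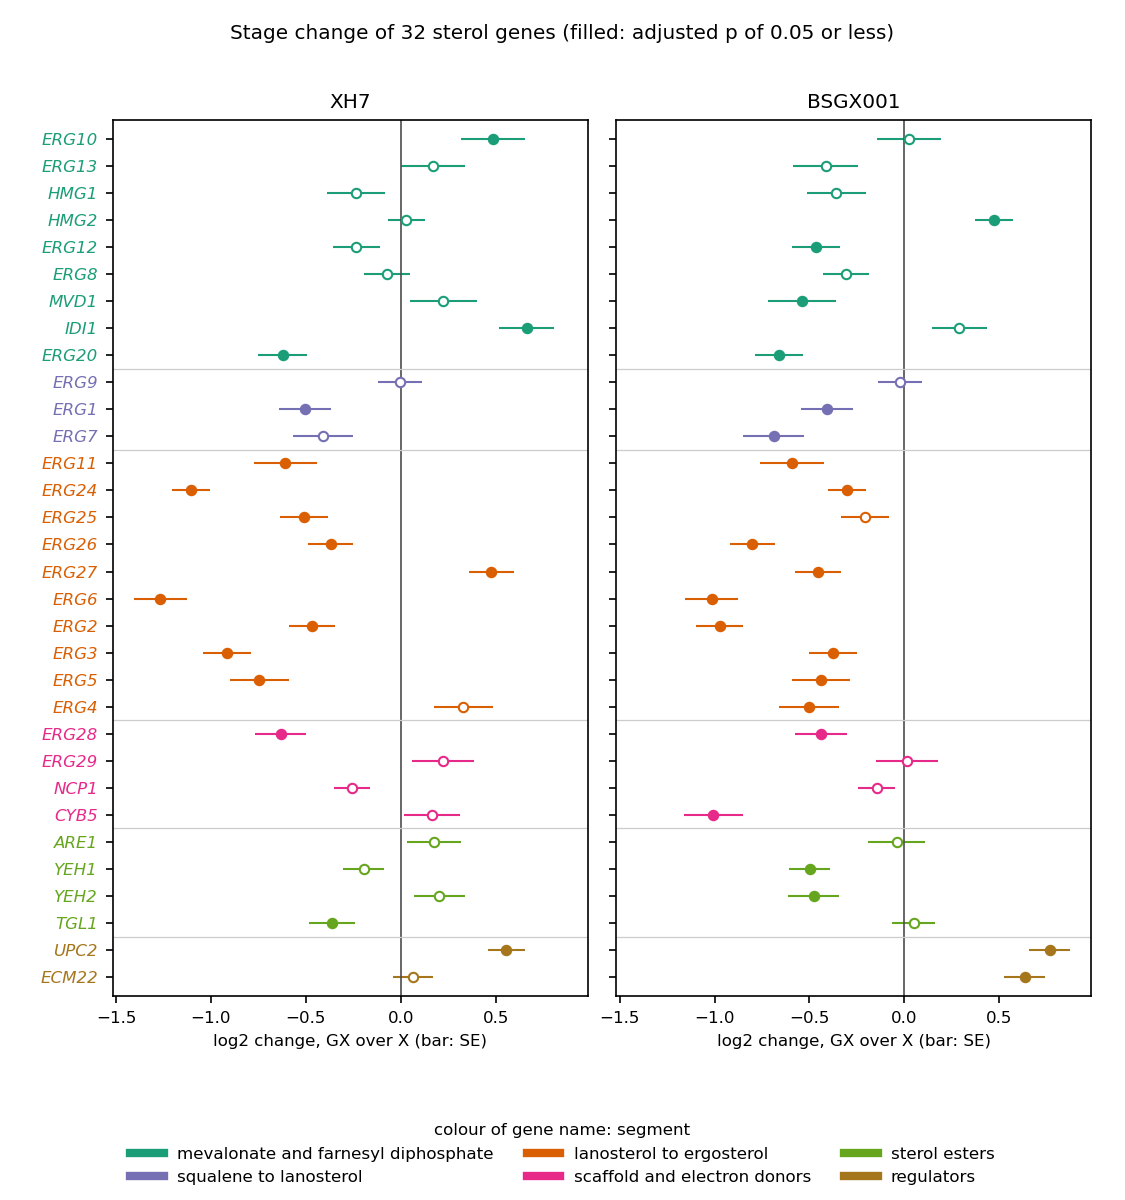
Stage change of each sterol gene (log2, GX over X, with its SE) in XH7 and in BSGX001, with filled points where the adjusted p was 0.05 or less and gene names coloured by segment. Most genes between ERG11 and ERG4 lie left of 0 in both strains, ERG27 changes side between the strains, and UPC2 lies right of 0 in both.

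Among the late genes, ERG6, the sterol methyltransferase that adds the side-chain methyl group typical of ergosterol, changed the most. ERG6 had 507 and 497 FPKM in XH7 GX samples, against 1233 and 1182 FPKM in XH7 X samples, and 173 and 174 FPKM in BSGX001 GX samples, against 398 and 304 FPKM in BSGX001 X samples. The GX samples were lower than the X samples in both strains with no overlap, at −1.27 ± 0.14 (SE, adjusted p = 0.000113) in XH7 and −1.01 ± 0.14 (SE, adjusted p = 0.000514) in BSGX001. In XH7, both GX samples lay below both X samples for 16 members and above them for 6, against 34.7% and 39.9% of all genes. In BSGX001 they did so for 24 and 4 members, against 41.1% and 38.0% of all genes. A lack of overlap was thus common over all genes, so by itself it says little about a given gene. ERG24, the reductase that follows lanosterol demethylation, had 86.02 and 84.6 FPKM in XH7 GX samples, against 174 and 193 FPKM in XH7 X samples, and 75.9 and 67.4 FPKM in BSGX001 GX samples, against 89.04 and 87.7 FPKM in BSGX001 X samples. Its GX samples lay below its X samples in both strains, at −1.11 ± 0.10 (SE, adjusted p = 5.14e-05) in XH7 but at −0.30 ± 0.10 (SE, adjusted p = 0.0341) in BSGX001. Only ERG6 and ERG24, 2 of 32 members, fell 2-fold or more in XH7, close to the share of all genes (5.88%). In BSGX001 only ERG6 and CYB5 did so, also 2 of 32 members, against 2.03% of all genes.

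ERG3, a desaturase of the sterol ring, had 1107 and 1225 FPKM in XH7 GX samples, against 2209.9 and 2189.7 FPKM in XH7 X samples, and 603 and 507 FPKM in BSGX001 GX samples, against 720.3 and 722 FPKM in BSGX001 X samples. Its groups did not overlap in either strain, and the change was −0.92 ± 0.13 (SE, adjusted p = 0.000376) in XH7 and −0.38 ± 0.13 (SE, adjusted p = 0.0331) in BSGX001. ERG2, the sterol isomerase, fell in XH7 (−0.47 ± 0.12) and in BSGX001 (−0.97 ± 0.12), and the difference between strains did not pass (adjusted p = 0.0532). ERG5, the P450 that desaturates the side chain, had a change of −0.74 in XH7 and −0.44 in BSGX001. ERG11, the P450 that demethylates lanosterol and is the target of azole drugs, had a change of −0.61 in XH7 and −0.59 in BSGX001. ERG3, ERG2, ERG5 and ERG11 thus passed as lower in both strains with all libraries. Some of these calls were lost in fits with 1 library left out: ERG3 and ERG5 in BSGX001, ERG2 in XH7 and ERG11 in both strains. In the demethylation complex, the methyl oxidase gene ERG25 fell in XH7 (−0.51 ± 0.13, SE, adjusted p = 0.00916) and had −0.21 in BSGX001 without passing (adjusted p = 0.202). The decarboxylase gene ERG26 fell in both, at −0.37 in XH7 and −0.80 in BSGX001, as did ERG28, whose product holds the complex together, with −0.63 in XH7 and −0.44 in BSGX001.

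ERG27, the ketoreductase of the same complex, went the other way in XH7. It had 515 and 626 FPKM in XH7 GX samples, against 419.6 and 401 FPKM in XH7 X samples, and 151 and 146 FPKM in BSGX001 GX samples, against 198 and 209 FPKM in BSGX001 X samples. XH7 GX samples were both above XH7 X samples and BSGX001 GX samples both below BSGX001 X samples, with 0.48 ± 0.12 (SE, adjusted p = 0.00913) in XH7 and −0.45 ± 0.12 (SE, adjusted p = 0.0126) in BSGX001. ERG4, which catalyses the last reduction to ergosterol, had 369 and 365 FPKM in XH7 GX samples, against 279 and 305 FPKM in XH7 X samples, and 122 and 96.98 FPKM in BSGX001 GX samples, against 177 and 134 FPKM in BSGX001 X samples. In XH7 its value of 0.33 did not pass (adjusted p = 0.108), and in BSGX001 it fell by 0.50 ± 0.16 on the log2 scale.

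Of the steps from squalene to lanosterol, the squalene epoxidase gene ERG1 fell in both strains, at −0.50 ± 0.14 in XH7 and −0.41 ± 0.14 in BSGX001. ERG7, the lanosterol synthase gene, had −0.41 in XH7 (adjusted p = 0.0557) and fell in BSGX001 (−0.69 ± 0.16, SE, adjusted p = 0.0068). ERG9, the squalene synthase at the branch point to sterols, had −0.004 in XH7 and −0.02 in BSGX001 and passed in neither.

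The mevalonate genes were less uniform. In XH7, ERG10, the acetoacetyl-CoA thiolase that opens the pathway, had 1522 and 2250.1 FPKM in XH7 GX samples, against 1324 and 1370.0 FPKM in XH7 X samples, and its change of 0.49 ± 0.17 (SE, adjusted p = 0.0383) rested on an XH7 GX pair that lay far apart and was 0.18, not passing, without XH7 GX replicate 2. IDI1, the isopentenyl diphosphate isomerase, had 908 and 1239 FPKM in XH7 GX samples, against 681 and 674 FPKM in XH7 X samples, a change of 0.66 ± 0.14 (SE, adjusted p = 0.00448). In BSGX001 ERG10 had 0.02 and IDI1 0.29, and neither passed. ERG20, the farnesyl diphosphate synthase that ends this segment, fell almost equally, at −0.62 ± 0.13 (SE, adjusted p = 0.00343) in XH7 and −0.66 ± 0.13 (SE, adjusted p = 0.00279) in BSGX001. MVD1, the mevalonate diphosphate decarboxylase, had 529 and 808 FPKM in XH7 GX samples, against 577 and 568 FPKM in XH7 X samples, and 184 and 187 FPKM in BSGX001 GX samples, against 258 and 281 FPKM in BSGX001 X samples. Its XH7 value of 0.22 did not pass, with GX samples on both sides of the X samples, and it fell in BSGX001 (−0.54 ± 0.18, SE, adjusted p = 0.0312) without overlap. ERG12, the mevalonate kinase, had −0.24 in XH7 without passing and fell in BSGX001 (−0.46 ± 0.13). ERG13 (the HMG-CoA synthase) and ERG8 (the phosphomevalonate kinase) passed in neither strain, with 0.17 and −0.07 in XH7 and −0.42 and −0.31 in BSGX001.

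HMG1 and HMG2 encode the paired HMG-CoA reductases, the main control point of the pathway, and their protein turnover is known to be regulated differently. HMG1 had 215 and 292 FPKM in XH7 GX samples, against 288 and 308 FPKM in XH7 X samples, and 140.2 and 120.0 FPKM in BSGX001 GX samples, against 168 and 165 FPKM in BSGX001 X samples. Its changes of −0.24 in XH7 and −0.36 in BSGX001 did not pass (adjusted p = 0.235 in XH7 and 0.0834 in BSGX001). HMG2 had 52.4 and 60.98 FPKM in XH7 GX samples, against 54.9 and 56.1 FPKM in XH7 X samples, and 37.6 and 37.9 FPKM in BSGX001 GX samples, against 27.7 and 26.7 FPKM in BSGX001 X samples. In XH7 the groups overlapped (0.03, adjusted p = 0.828), and in BSGX001 it rose (0.47 ± 0.10, SE, adjusted p = 0.00462), with both GX samples above the X samples. The HMG2 to HMG1 ratio of FPKM was 0.244 and 0.209 in XH7 GX samples, against 0.191 and 0.182 in XH7 X samples, and 0.268 and 0.316 in BSGX001 GX samples, against 0.165 and 0.161 in BSGX001 X samples. The ratio was thus higher in the GX than in the X samples of both strains without overlap, and HMG1 was the more abundant transcript in every sample.

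Electron donors did not move as a block. CYB5, the cytochrome b5 that passes electrons to several sterol and lipid desaturation steps, had 1128 and 1429.7 FPKM in XH7 GX samples, against 1113 and 1168 FPKM in XH7 X samples, and 196 and 194 FPKM in BSGX001 GX samples, against 442 and 341 FPKM in BSGX001 X samples. In XH7 the 2 stages overlapped (0.16, adjusted p = 0.389), while in BSGX001 it fell by 1.01 ± 0.16 on the log2 scale (adjusted p = 0.000884) with no overlap. NCP1, the reductase that supplies the P450 enzymes, had −0.26 in XH7 and −0.15 in BSGX001, and ERG29, needed for the methyl oxidase step, had 0.22 in XH7 and 0.01 in BSGX001. None of these 4 values passed.

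For the sterol esters, ARE1, an acyltransferase that makes them, had 98.7 and 132 FPKM in XH7 GX samples, against 109 and 94.9 FPKM in XH7 X samples, and 35.6 and 38.2 FPKM in BSGX001 GX samples, against 35.6 and 40.3 FPKM in BSGX001 X samples. Its changes of 0.18 in XH7 and −0.04 in BSGX001 did not pass, and the stages overlapped in both strains. ARE1 shares part of its position with YCR050C and is listed with a shorter length than in the R64 annotation, so its level is less certain. YEH1, a steryl ester hydrolase, had 146 and 142 FPKM in XH7 GX samples, against 168 and 163 FPKM in XH7 X samples, and 64.9 and 57.5 FPKM in BSGX001 GX samples, against 92.6 and 80.6 FPKM in BSGX001 X samples. Its XH7 value of −0.19 did not pass, and it fell in BSGX001 (−0.50 ± 0.11, SE, adjusted p = 0.00525). YEH2, the hydrolase paired with it, had 44.6 and 54.04 FPKM in XH7 GX samples, against 43.8 and 41.9 FPKM in XH7 X samples, and 25.04 and 30.2 FPKM in BSGX001 GX samples, against 41.3 and 35.6 FPKM in BSGX001 X samples. It had 0.20 in XH7 without passing and also fell in BSGX001 (−0.48 ± 0.13, SE, adjusted p = 0.0167). The YEH2 to YEH1 ratio was 0.305 and 0.379 in XH7 GX samples, against 0.261 and 0.257 in XH7 X samples, and 0.386 and 0.525 in BSGX001 GX samples, against 0.446 and 0.442 in BSGX001 X samples, where the stages overlapped. TGL1, the hydrolase on the surface of lipid droplets, fell in XH7 (−0.36 ± 0.12, SE, adjusted p = 0.0316) and had 0.05 in BSGX001.

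The genes of the regulators did not fall with the late genes. UPC2 had 46.7 and 52.6 FPKM in XH7 GX samples, against 32.7 and 34.8 FPKM in XH7 X samples, and 18.2 and 18.2 FPKM in BSGX001 GX samples, against 10.4 and 11.02 FPKM in BSGX001 X samples. The GX samples were above the X samples in both strains, by 0.56 ± 0.10 (SE, adjusted p = 0.00142) in XH7 and 0.76 ± 0.11 (SE, adjusted p = 0.000533) in BSGX001. ECM22 had 42.5 and 46.2 FPKM in XH7 GX samples, against 46.1 and 38.8 FPKM in XH7 X samples, and 32.9 and 32.97 FPKM in BSGX001 GX samples, against 21.03 and 21.4 FPKM in BSGX001 X samples. Its XH7 groups overlapped (0.06, adjusted p = 0.645), and it rose in BSGX001 (0.63 ± 0.11, SE, adjusted p = 0.00148). The ECM22 to UPC2 ratio was 0.91 and 0.878 in XH7 GX samples, against 1.41 and 1.12 in XH7 X samples, and 1.8 and 1.81 in BSGX001 GX samples, against 2.02 and 1.94 in BSGX001 X samples. UPC2 was the more abundant transcript of the pair only in the XH7 GX samples. Of the 10 members with a sterol response core in the reference, 6 fell in XH7 (median −0.49) and 7 fell in BSGX001 (median −0.43). Among the 22 without one, 4 rose and 6 fell in XH7 (median 0.01), and 3 rose and 11 fell in BSGX001 (median −0.33).

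Many of the smaller changes passed with all libraries and not in every fit with 1 library left out, in part with nearly the same value. In XH7, 8 of the 16 calls held under every alternative tried (IDI1, ERG20, ERG24, ERG6, ERG3, ERG5, ERG28 and UPC2), and the calls lost with 1 library left out numbered 3 without BSGX001 GX replicate 1 (−0.37 to 0.49), 3 without BSGX001 GX replicate 2 (−0.37 to 0.49), 3 without XH7 X replicate 1 (−0.42 to 0.47), 6 without XH7 X replicate 2 (−0.53 to 0.48), 2 without XH7 GX replicate 1 (−0.48 to −0.38) and 3 without XH7 GX replicate 2 (−0.33 to 0.18), where the values in parentheses are the log2 changes of the calls that were lost. The calls lost in this way were those of ERG10, ERG1, ERG11, ERG26, ERG27, ERG2 and TGL1, and ERG25 lost its call with library totals (−0.31). The members higher in XH7 numbered 8 without XH7 GX replicate 1, and 2 without either XH7 X replicate. With library totals in place of TMM, 6 members were higher and 6 lower in XH7, and the median of all genes was 0.24. In BSGX001, 8 of 21 calls held throughout (HMG2, ERG20, ERG26, ERG6, ERG2, CYB5, UPC2 and ECM22), and the calls lost with 1 library left out numbered 10 without BSGX001 X replicate 1 (−0.58 to −0.22), 4 without BSGX001 X replicate 2 (−0.48 to −0.31), 10 without BSGX001 GX replicate 1 (−0.68 to −0.35), 11 without BSGX001 GX replicate 2 (−0.55 to −0.22), 4 without XH7 X replicate 1 (−0.52 to −0.28) and 4 without XH7 X replicate 2 (−0.52 to −0.28). These were the calls of ERG12, MVD1, ERG1, ERG7, ERG11, ERG24, ERG27, ERG3, ERG5, ERG4, ERG28, YEH1 and YEH2. The members lower in BSGX001 numbered 8 without BSGX001 X replicate 1, 8 without BSGX001 GX replicate 1 and 7 without BSGX001 GX replicate 2, against 18 with all libraries.

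The XH7 GX replicates differed more in the sterol genes than those of the other groups. The median SD between replicates over the 32 members was 0.16 on the log2 scale in XH7 GX samples and 0.04 in XH7 X samples, and 0.05 in BSGX001 GX samples and 0.06 in BSGX001 X samples. All 9 mevalonate and farnesyl genes were higher in XH7 GX replicate 2 than in replicate 1, with a median log2 gap of 0.44 and a range of 0.19 to 0.61 (MVD1). The median gap of these genes was 0.03 in XH7 X samples, 0.005 in BSGX001 GX samples and 0.03 in BSGX001 X samples. The 10 late genes had a median gap of 0.15 in XH7 GX samples. The median SD over all genes was 0.12 in XH7 GX samples and close to it in BSGX001 X samples, at 0.11. It was 0.09 in XH7 X samples and 0.06 in BSGX001 GX samples. By chi-square per degree of freedom over all genes tested, replicates differed most in BSGX001 X samples (37.2, against 18.7 in XH7 GX samples). In BSGX001 the gap of the 10 late genes, replicate 2 over replicate 1, had a median of −0.17 in GX samples and −0.23 in X samples, with 2 of 10 genes higher in replicate 2 in each. ERG7, in the segment before them, had the gap of −0.54 in BSGX001 X samples. The part of these gaps in the stage changes was not tested beyond leaving out each library.

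**Figure D4:**
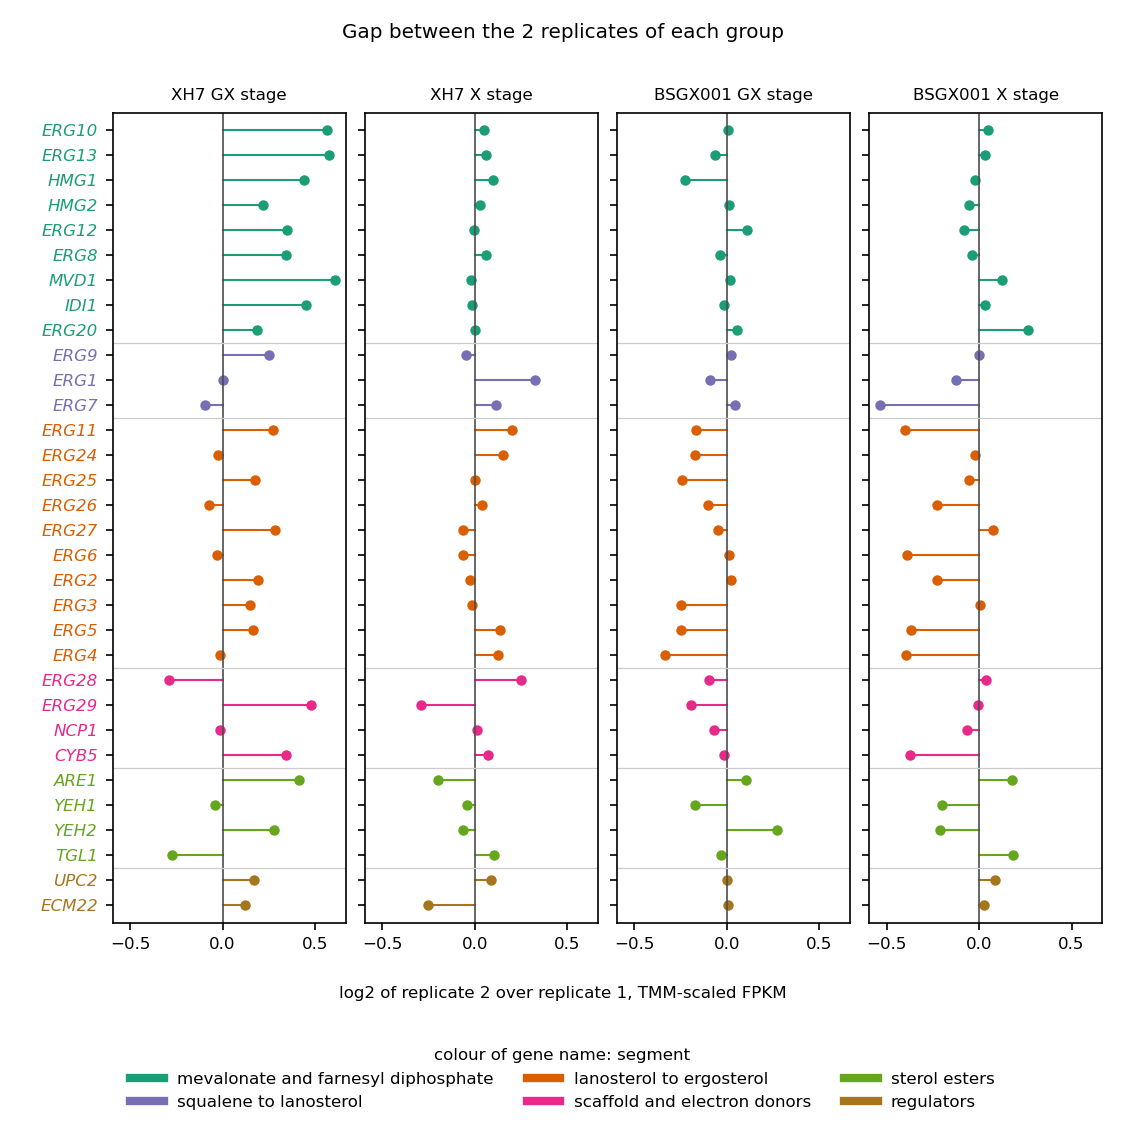
Log2 of replicate 2 over replicate 1 for each sterol gene in the 4 groups, from TMM-scaled FPKM, coloured by segment. In XH7 GX samples all 9 mevalonate and farnesyl genes lie right of 0, by 0.19 to 0.61, whereas they lie on both sides of 0 in XH7 X samples (−0.02 to 0.10) and in BSGX001 GX samples (−0.225, for HMG1, to 0.11).

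The second comparison asked whether the stage change differed between strains, as the XH7 change minus the BSGX001 change. It passed for 9 of 32 members, 5 higher (15.6%) and 4 lower (12.5%), against 15.4% and 14.2% of all genes, so the share of members was close to that of all genes. The median difference of the members was 0.17 and that of all genes 0.05. The differences were higher for CYB5 (1.17 ± 0.22, SE, adjusted p = 0.00415), ERG27 (0.93 ± 0.17, SE, adjusted p = 0.00404), ERG4 (0.83 ± 0.22, SE, adjusted p = 0.0205), MVD1 (0.76 ± 0.25, SE, adjusted p = 0.0448) and YEH2 (0.68 ± 0.19, SE, adjusted p = 0.0259), and each of these genes had fallen in BSGX001. They were lower for ERG24 (−0.80 ± 0.14, SE, adjusted p = 0.00368) and ERG3 (−0.54 ± 0.18, SE, adjusted p = 0.0468), which fell more in XH7, and for ECM22 (−0.57 ± 0.15, SE, adjusted p = 0.0217) and HMG2 (−0.44 ± 0.14, SE, adjusted p = 0.0428), which passed as higher in BSGX001 and did not pass in XH7. CYB5, ERG27 and ERG24 held under every alternative tried. The other 6 lost their call in some fits with 1 library left out: 3 without BSGX001 X replicate 1 (0.52 to 0.77), 3 without BSGX001 X replicate 2 (−0.54 to 0.70), 5 without BSGX001 GX replicate 1 (−0.57 to 0.75), 5 without BSGX001 GX replicate 2 (−0.66 to 0.77), 6 without XH7 X replicate 1 (−0.59 to 0.72), 5 without XH7 X replicate 2 (−0.59 to 0.85), 2 without XH7 GX replicate 1 (−0.47 to −0.34) and 2 without XH7 GX replicate 2 (0.43 to 0.54), with the log2 differences of the lost calls in parentheses. The members with a higher difference numbered 2 to 9 over these fits and those with a lower one 1 to 5. With library totals 9 were higher and 1 lower, where the median of all genes was also 0.24.

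The third comparison set the strains against each other within each stage. In the GX stage 29 of 32 members (90.6%) were higher in XH7 than in BSGX001, 21 of them 2-fold or more, and 1 was lower, while 33.4% of all genes were higher, 10.8% were higher 2-fold or more, and 32.6% were lower. In the X stage 29 members were again higher and 19 of them 2-fold or more, against 26.5% and 6.2% of all genes, and 0 were lower (29% of all genes), a count that was also 0 at an unadjusted p under 0.05 and by DESeq2 and limma. The median difference of the members was 1.29 in the GX stage and 1.07 in the X stage, where all genes had medians of 0.01 in the GX stage and −0.03 in the X stage. Both XH7 samples were above both BSGX001 samples for 30 members in each stage, against 43.1% of all genes in the GX stage and 37.9% in the X stage. The same 28 members were higher in XH7 in both stages, and 16 were 2-fold or more higher in both. The shares of all genes that did so in both stages were not counted.

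**Figure D5:**
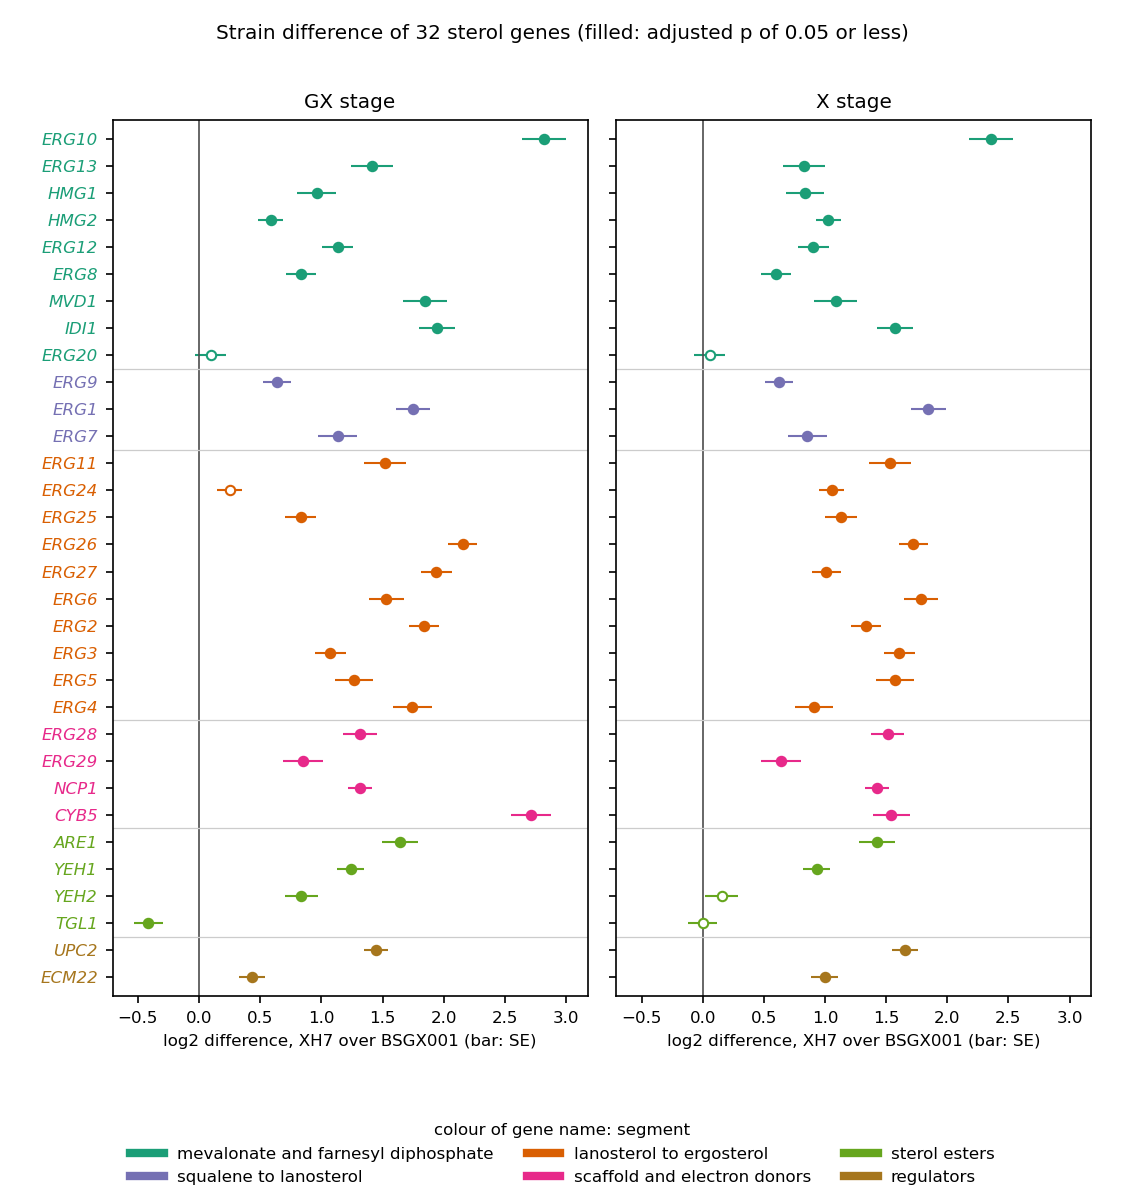
Strain difference of each sterol gene (log2, XH7 over BSGX001, with its SE) in the GX stage and in the X stage, with filled points where the adjusted p was 0.05 or less. Nearly all points lie right of 0 in both stages, ERG10 farthest at 2.82 in the GX stage and 2.36 in the X stage, and ERG20 near 0 in both.

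ERG10 had the largest difference. It had 1522 and 2250.1 FPKM in XH7 GX samples, against 267 and 267 FPKM in BSGX001 GX samples, and 1324 and 1370.0 FPKM in XH7 X samples, against 259 and 267 FPKM in BSGX001 X samples, so the strains were far apart and the BSGX001 samples nearly equal. The log2 difference was 2.82 ± 0.18 (SE, adjusted p = 2.07e-06) in the GX stage and 2.36 ± 0.18 (SE, adjusted p = 1.08e-05) in the X stage. CYB5 followed in the GX stage with 2.71 ± 0.16, and had 1.54 ± 0.15 in the X stage. ERG26 (2.15 in the GX stage and 1.72 in the X stage), IDI1 (1.95 in the GX stage and 1.57 in the X stage), ERG2 (1.84 in the GX stage and 1.34 in the X stage) and ERG1 (1.75 in the GX stage and 1.85 in the X stage) were also more than 2-fold higher in both stages. The reductase gene HMG1 was higher by 0.96 in the GX stage and 0.84 in the X stage, and HMG2 by 0.59 in the GX stage and 1.03 in the X stage. Among electron donors NCP1 was higher by 1.31 in the GX stage and 1.43 in the X stage.

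The exceptions were few. ERG20 did not differ beyond its error, with 0.10 ± 0.13 in the GX stage and 0.06 ± 0.13 in the X stage (adjusted p = 0.532 in the GX stage and 0.728 in the X stage). ERG24 had 0.25 in the GX stage (adjusted p = 0.0538) and 1.05 ± 0.10 (SE, adjusted p = 4.02e-05) in the X stage. YEH2 was higher in the GX stage (0.83 ± 0.14, SE, adjusted p = 0.000489) and had 0.15 in the X stage (adjusted p = 0.356). TGL1 was the only member lower in XH7, in the GX stage: it had 38.4 and 31.8 FPKM in XH7 GX samples, against 47.4 and 46.3 FPKM in BSGX001 GX samples, a difference of −0.41 ± 0.12 (SE, adjusted p = 0.0112). That call was lost without BSGX001 GX replicate 1 (−0.40) and without XH7 GX replicate 2 (−0.29). In the X stage the TGL1 samples of the strains overlapped (43.5 and 46.8 FPKM in XH7, against 42.4 and 48.2 FPKM in BSGX001). Of the other calls, 29 of 29 in the GX stage held under every alternative and 27 of 29 in the X stage, the X-stage exceptions being ERG8 (0.60) and ERG29 (0.64, lost without XH7 X replicate 1 at 0.53).

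UPC2 and ECM22 were higher in XH7 too, with 1.45 ± 0.10 in the GX stage and 1.66 ± 0.11 in the X stage for UPC2, and 0.43 ± 0.11 in the GX stage and 1.00 ± 0.11 in the X stage for ECM22. All 10 members with a sterol response core in the reference were higher in XH7 in both stages (medians 1.36 in the GX stage and 1.42 in the X stage), and of the 22 others 19 were higher in each stage (medians 1.20 in the GX stage and 1.02 in the X stage).

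Genes around the pathway come from lists drawn up beside the member list, and those named are examples whose call held under every alternative that could be fitted. Their counts stand beside all genes, of which 26.7% rose and 22% fell in XH7, 23% rose and 24.7% fell in BSGX001, and 33.4% were higher and 32.6% lower in XH7 in the GX stage, with 26.5% higher and 29% lower in the X stage. The isoprenoid branches that draw on farnesyl diphosphate (12 genes) had 3 members that rose in XH7 and 2 that fell in BSGX001, shares no larger than those of all genes. Between the strains, 1 of them was higher and 6 were lower in XH7 in the GX stage, and 5 were lower in the X stage. COX10, which makes heme O from farnesyl diphosphate and heme, rose in XH7 (0.87). Of 21 genes of sterol transport, uptake and export, 3 rose and 9 fell in XH7, and 6 rose and 4 fell in BSGX001, the BSGX001 shares lying near those of all genes. PRY1, which binds and exports sterol acetates, had 121 and 121 FPKM in XH7 GX samples, against 537 and 555 FPKM in XH7 X samples, and 684 and 682 FPKM in BSGX001 GX samples, against 306 and 489 FPKM in BSGX001 X samples, so it fell in XH7 (−2.17) and rose in BSGX001 (0.78), and the difference passed (−2.96, adjusted p = 0.00026). ATF2, which makes those acetates, fell by 1.36 in XH7 on the log2 scale. OSH5, a member of the oxysterol-binding family, had 33.9 and 40.5 FPKM in XH7 GX samples, against 41.2 and 23.3 FPKM in XH7 X samples, and 4.95 and 5.79 FPKM in BSGX001 GX samples, against 1.501 and 0.599 FPKM in BSGX001 X samples, a strain difference of 2.79 in the GX stage and 4.89 in the X stage. The X-stage value rests on low levels in BSGX001 X samples and was 5.73 without BSGX001 X replicate 1, 4.40 without BSGX001 X replicate 2 and 3.78 to 5.73 over all alternatives.

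Of 8 genes of heme synthesis and P450 support, 2 rose and 2 fell in XH7 and 1 rose in BSGX001, which is close to the shares of all genes in XH7 and below them in BSGX001. HEM13, the oxygen-using coproporphyrinogen oxidase, had 379 and 279 FPKM in XH7 GX samples, against 1000.5 and 932 FPKM in XH7 X samples, and 73.99 and 95.1 FPKM in BSGX001 GX samples, against 103 and 68.4 FPKM in BSGX001 X samples. It fell in XH7 (−1.55), its BSGX001 stages overlapped (−0.02), and it was higher in XH7 by 1.96 in the GX stage and 3.50 in the X stage. DAP1, the heme-binding helper of ERG11, was higher in XH7 by 1.42 in the GX stage and 1.59 in the X stage. Among 9 factors of oxygen, heme and sterol control, 4 rose and 2 fell in XH7, and 5 rose and 2 fell in BSGX001. TUP1, a general corepressor, fell in both strains (−0.715 in XH7 and −0.755 in BSGX001). Among those that rose were SUT2 in XH7 (1.214), and HAP1 (0.689) and SUT1 (0.604) in BSGX001. Between the strains, 6 of these factors were higher and 1 lower in XH7 in the GX stage, and 7 were higher in the X stage. MGA2, an activator in the endoplasmic reticulum membrane known for control of the fatty acid desaturase gene OLE1, had 214 and 276 FPKM in XH7 GX samples, against 151 and 150.5 FPKM in XH7 X samples, and 23.2 and 21.4 FPKM in BSGX001 GX samples, against 14.9 and 16.8 FPKM in BSGX001 X samples, a strain difference of 3.46 in the GX stage and 3.25 in the X stage. ROX1, the repressor of hypoxic genes, was higher by 1.86 in the GX stage and 1.38 in the X stage. Of 9 genes for turnover of HMG-CoA reductase and squalene epoxidase, 4 rose and 1 fell in XH7, and 2 rose and 1 fell in BSGX001, where the share that rose was close to that of all genes. UBC7, a ubiquitin-conjugating enzyme of that route, rose in both (0.94 in XH7 and 0.60 in BSGX001), and HRD1, its ubiquitin ligase, rose in XH7 (0.78). Of the 7 neutral lipid genes, 5 were lower in XH7 in the GX stage and 6 in the X stage, against 32.6% and 29% of all genes. Between the stages, 2 of the 7 rose and 2 fell in XH7, and 3 rose and 1 fell in BSGX001. LDH1, a lipid droplet hydrolase, rose in both strains (0.60 in XH7 and 0.50 in BSGX001). LRO1, of the same list, fell in BSGX001 (−0.595). It had −0.474 in XH7, where its call did not hold under every alternative.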

How the data were processed

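Total RNA was selected for poly(A) mRNA and sequenced on an Illumina HiSeq instrument from duplicate fermentations of each strain and stage. The authors deposited, for each sample, estimated counts per gene (expected counts, a few percent not whole), FPKM and a gene length without UTRs. No aligner, counter or strand setting is named (not given in the sources used here), and the submitters' processing notes name build R64. The authors' own stage comparisons (mean FPKM, log2 ratio and probability) were not used.

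Expected counts were rounded and tested with edgeR 4.0.16 in R 4.3.3 (TMM scaling, filterByExpr with a minimum count of 10, quasi-likelihood F test, 1 fit of 4 groups, Benjamini-Hochberg over 5921 genes). FPKM in the text was recomputed from the counts and deposited lengths with TMM scaling. On simulated data with 50 genes at each fold, the fit for the BSGX001 stage change passed 94% to 98% of genes changed 2-fold. The simulation took its spread from the fit to these data, left 5698 genes unchanged and held no change below 2-fold. It therefore does not bear on the smaller changes, which most stage calls on members were. Alternatives were DESeq2 1.42.0 (size factors, Wald test), upper-quartile scaling, library totals, no filter, a CPM of 10 in 2 samples, limma 3.58.1 on log2 of the deposited FPKM with pseudocounts of 1 and 0.1, a replicate block, each strain alone and each library left out. Replicates of a group differed by more than sampling noise, with a chi-square of 4.08 to 37.2 per degree of freedom, so none was counted as a repeat.

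The members and lists were chosen with earlier results of these data known. Values in every sample were given for members changed 2-fold or more between stages, members whose change differed between strains, and the paralog pairs, with ERG10, IDI1 and TGL1 added after their values were seen. Of each other list, up to 2 genes per strain and direction were eligible. Promoter windows came from the RefSeq R64 genome, where 31 of 32 members had the deposited length. SWH1 and HEM1 were not analysed here.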

Additional observations from a re-analysis of the deposited data

Results flagged for a closer look

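The stage change differed between the strains for 9 sterol genes by the interaction term of the edgeR fit. Of the members 15.6% were higher and 12.5% lower, close to the 15.4% and 14.2% of all genes. The values are the XH7 change minus the BSGX001 change on the log2 scale. The difference was 1.17 for CYB5, 0.93 for ERG27, 0.83 for ERG4, 0.76 for MVD1 and 0.68 for YEH2, and −0.8 for ERG24, −0.57 for ECM22, −0.54 for ERG3 and −0.44 for HMG2. ERG27 rose in XH7 and fell in BSGX001, each past the test with all libraries. Both calls were among those lost with 1 library left out. The XH7 change was 0.47 without XH7 X replicate 1 and 0.42 without XH7 X replicate 2. The BSGX001 change was −0.48 without BSGX001 GX replicate 1 and −0.43 without BSGX001 GX replicate 2. Groups of 2 samples were not searched for outlying samples.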

How the results depend on the processing

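No call on a sterol gene changed direction under any of the 19 alternatives. Calls held throughout for 8 of 16 members in the XH7 stage change, 8 of 21 in BSGX001, 3 of 9 for the difference of the changes, 29 of 30 for the strains in the GX stage and 27 of 29 in the X stage. Of 55 results that did not pass, 28 changed sign under some alternative (none larger than 0.28 in size, and 0 values passed with the other sign), and 23 passed under some alternative with the same sign. Of 82 results of genes in the other lists, 51 held throughout.

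Library totals and limma on FPKM do not adjust for RNA composition and shifted all genes: the all-gene median of the XH7 stage change was 0.24 with library totals (0.04 with TMM), that of the strain difference in the X stage −0.32 (−0.03 with TMM), and that of the difference of the changes 0.24 (0.05 with TMM). The share of calls that were higher was then 73.8% in XH7 (54.8% with TMM), 24.8% for the strains in the X stage (47.7% with TMM) and 73.2% for the difference (52.1% with TMM). For the XH7 stage change, members lower numbered 6 with library totals and 7 with limma at either pseudocount, with medians of −0.017 and −0.019. For the difference of the changes, 9 members were higher and 1 lower with library totals and with limma, with medians of 0.35 for library totals, 0.338 for limma with a pseudocount of 1 and 0.34 with 0.1. The members' median strain difference was 1.19, 1.171 and 1.173 in the GX stage, and 0.783, 0.768 and 0.772 in the X stage, for library totals and limma with pseudocounts of 1 and 0.1. Upper-quartile scaling gave a BSGX001 median of −0.52 (all genes −0.13, with 35.4% of calls higher against 48.1% with TMM), 2 members lower in the difference and an X-stage strain median of 1.03. DESeq2 size factors gave 1.11 for that median and the DESeq2 Wald test 1.109.

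With 1 library left out, the lone sample of that group was assumed to vary like the others. The XH7 stage change then had 2 to 8 members higher, 8 to 14 lower and a median of −0.244 to −0.052, and that of BSGX001 had 3 to 4 higher, 7 to 21 lower and a median of −0.451 to −0.323. The difference had 2 to 9 higher, 1 to 5 lower and a median of −0.051 to 0.257. The strain difference had 29 higher in each fit, 0 to 1 lower and a median of 1.222 to 1.359 in the GX stage, and 28 to 29 higher and a median of 1.07 to 1.172 in the X stage. Why these counts moved was not tested.

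The main fit did not pair samples by replicate number. Deviations of same-numbered samples correlated over genes at −0.28 in XH7 and −0.035 in BSGX001. With 2 samples per group, these values cannot show whether same-numbered samples belong together. With the number as a replicate block, the difference of the changes had 2 members lower (4 without the block), and BSGX001 had 14 lower (18 without). With 2 samples per group the spread is poorly known, and no depth limit was met, as each member had at least 232 counts in each library.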
